A study of Mus musculus with 2 samples.

Results

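Homeobox and related regional transcription factors are described here as a set of 65 genes, among 32285 genes in the deposited tables of mouse brain sections. A gene belonged to the set when its symbol began with the name of a Hox, Dlx, Lhx, Irx, Otx, Pax, Nkx, Pou, Meis, Pbx, En, Emx, Isl, Pitx, Barhl, Zfhx, Cux or Satb gene, or of a gene of the Six3 family, followed by a digit, or was Prox1, Otp or Rax, and when it had at least 50 unique molecular identifiers (UMIs, tags that count each captured transcript once) over both sections. Of 135 symbols with such names, 70 fell under that limit and 25 of these had no UMI at all. The limit used no comparison between regions. Just outside it were Rax, Pax2, Pou3f4 and Lhx3, with 47, 41, 38 and 37 UMIs, and just inside were Dlx1as, Lhx1, Irx6 and Nkx6-1, with 53, 56, 62 and 64. The members had a median of 635 UMIs. Dlx1as is an antisense gene and not a homeobox gene, and it stays in the set because its name fits.

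The study asked how regions of the wild-type C57BL/6 mouse brain differ, and RNA was measured with 10x Visium, in which barcoded spots under a tissue section each take up RNA from the cells above them, often several and of different types. Both samples are fresh-frozen brain sections labelled ZT12 (commonly read as a zeitgeber time, hours after lights on), replicates 1 and 2, called sections 1 and 2. They share genotype and strain, the labels give no age or treatment, and all comparisons below are therefore between regions within the sections. Whether the sections are from 1 animal or 2 is not in the labels. The p-values therefore cover the spread between these 2 sections, which may be technical.

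Homeobox genes encode transcription factors that bind DNA through a homeodomain, and most were first described for their part in dividing the embryo into territories. In the neural tube, nested domains of such factors set up the pallium, the subpallium, the thalamus, the hypothalamus, the midbrain and the hindbrain, and many stay on in the adult neurons that descend from those domains. Hox genes act in the hindbrain and spinal cord, Otx and Emx genes in the forebrain, Dlx genes in GABAergic neurons of the subpallium, and Irx, En and several Pax genes in the midbrain and behind it.

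Spots with at least 500 UMIs numbered 3030 in section 1 and 2531 in section 2, with medians of 18127 and 21555 UMIs per spot. Clustering these spots on genes outside the set gave 16 clusters. Those with 15 spots or more per section, 14 in all, are called regions, by number and by the gene outside the set that led them. UMIs were summed per section and region, since spots are not replicates, which gave 28 sums of between 73159 and 11306232 UMIs. Members were kept out of the clustering, but genes that vary with them were not, so regional p-values may be too small. Levels are given as CPM, the UMIs of a gene per 1000000 UMIs of its sum, for section 1 and then section 2. The sections were not cut alike: 295 and 54 spots fell in region 9, 29 and 198 in region 10, and 25 and 174 in region 11. Region 12, led by Malat1, held spots with about 2160 and 3050 UMIs each, the fewest of any region. Of the spot barcodes, 1965 occur in both sections, since barcodes mark array positions.

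Regional differences were found for most members. By edgeR's quasi-likelihood test over the 14 regions, 58 of 65 members differed at a Benjamini-Hochberg adjusted p under 0.05, against 60.5% of all 7963 genes tested. Next, every region was set against the mean of all others, and a member was called higher or lower there at an adjusted p under 0.05, a fold of at least 2 and the same direction in both sections. Of 910 pairs of a member and a region, 75 were called higher, against 2.89% of all gene and region pairs, and 30 lower, against 0.677%. Some region was called higher for 48 members (background 29.3%) and lower for 19 (background 7.82%). Of these 48, 28 were called higher in exactly 1 region, 15 in 2 and 5 in 3 or more. The like split over all genes was not counted, so it is not read as a trait of the members. The comparison is with the mean of log levels, so a gene with no UMI in several regions can be called in a region where its level is modest. For 34 of the 75 higher calls at least 1 other region had 0 UMIs, and for these the levels are given in place of a fitted fold change. Each call picked by the rule for named members was repeated without the region's own sum of section 1 and again without that of section 2, and 40 of 87 such calls passed both times. Passing or holding here meant an adjusted p under 0.05, with no limit on the fold. Some folds then fell under 2, as for Pou3f1 in region 5, at 0.81 on the log2 scale without the section 1 sum. A call lost without a sum does not show that the difference was lost, since the fit then rests on 1 sum of the region. The fold change without that sum is given where many calls were lost. In mixed spots, more cells of a type and more RNA per cell cannot be told apart.

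**Figure D1:**
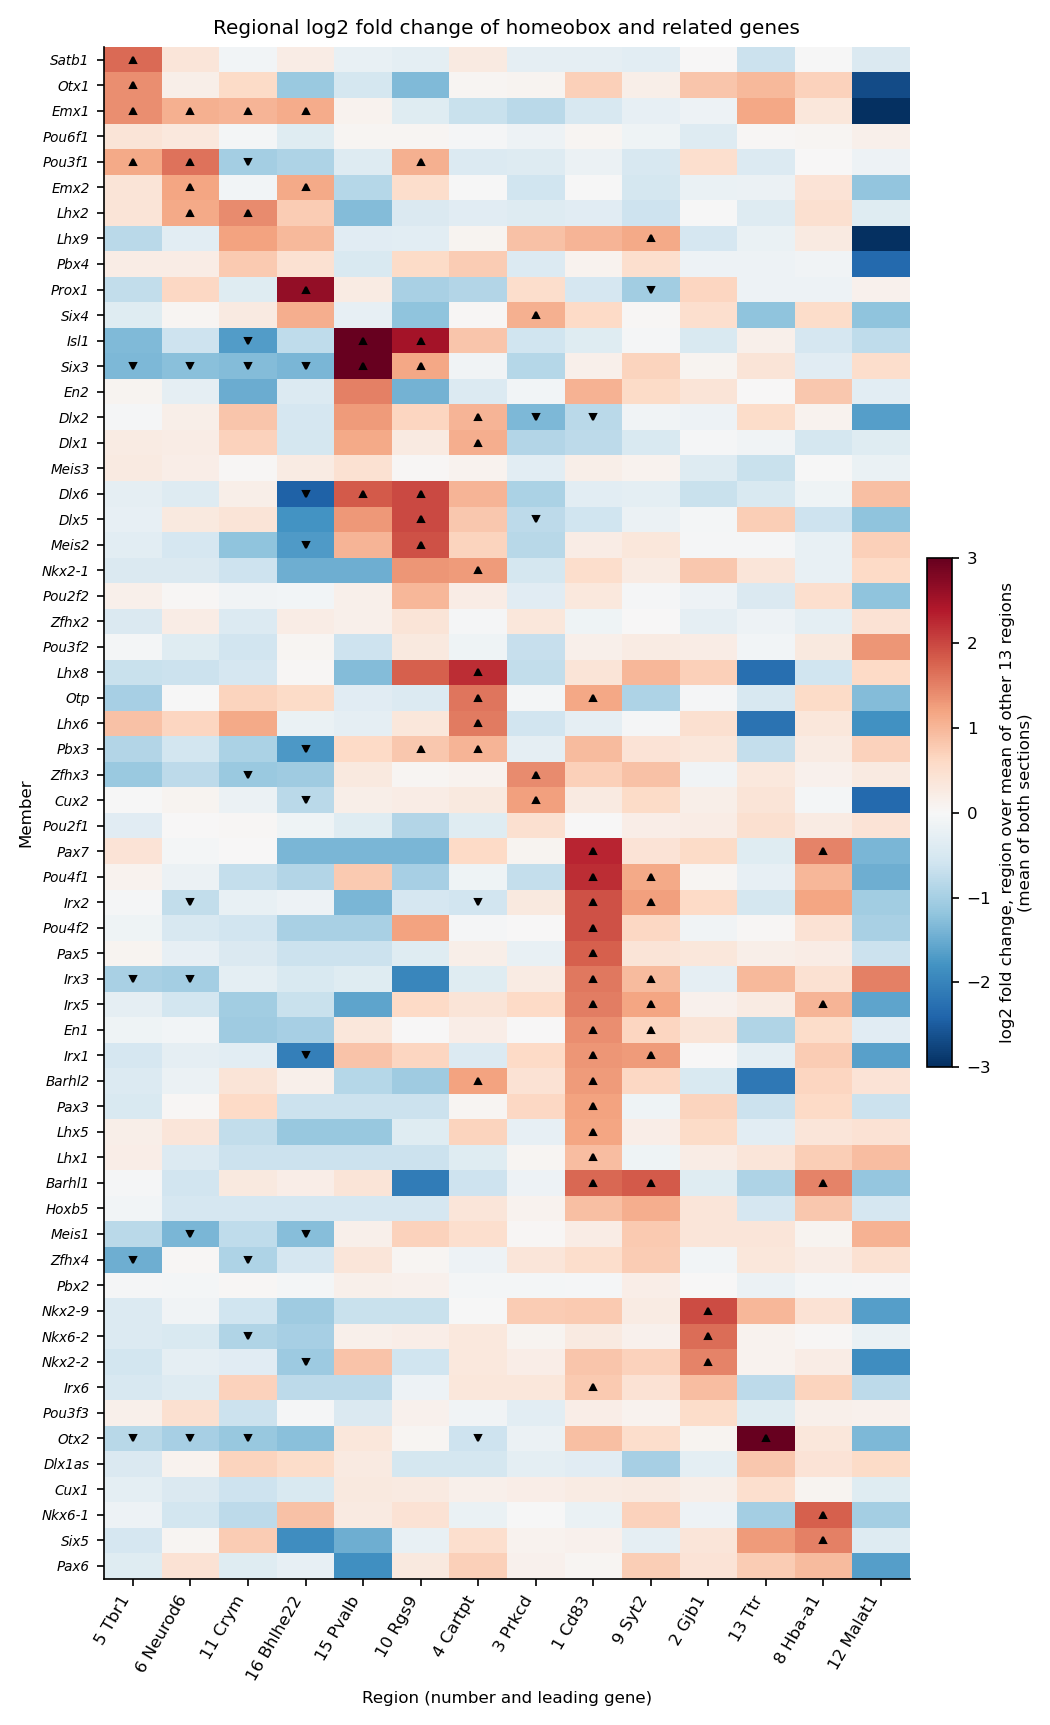
Log2 fold change of 60 of the 65 members (rows) in each of 14 regions (columns) over the mean of the other 13, as the mean of both sections' values, on a colour scale cut at 3 in either direction. Upward triangles mark their 67 calls of higher and downward triangles their 30 calls of lower, and the calls of higher gather in regions 1 and 9, in regions 10 and 4, and in regions 5 and 6.

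**Figure D2:**
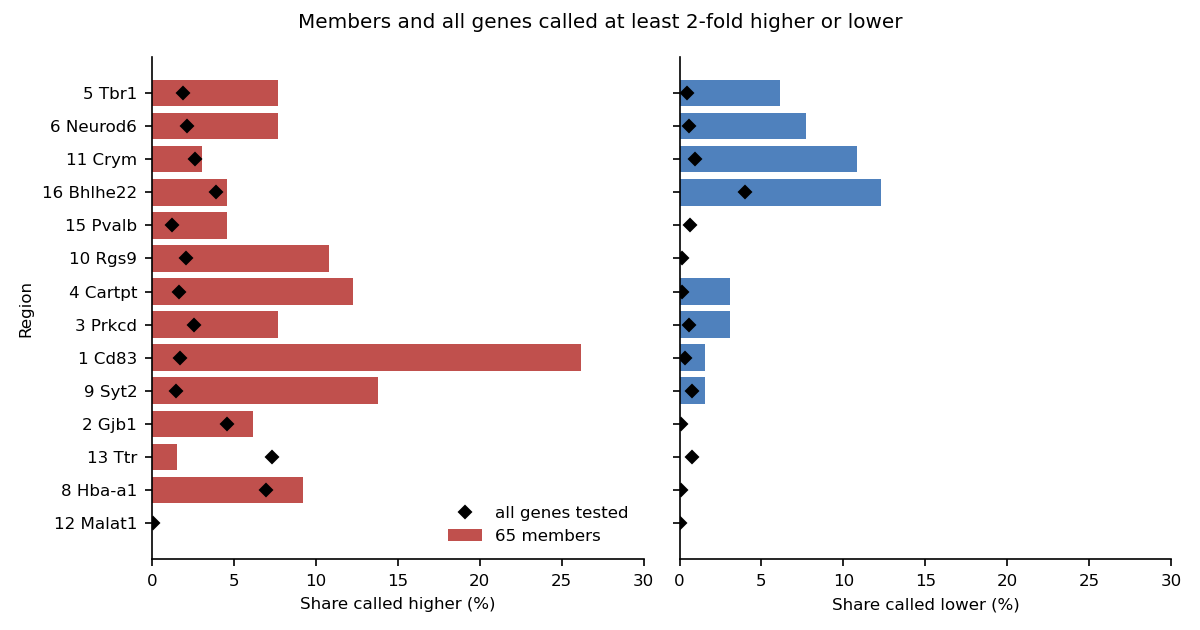
Share of the 65 members (bars) and of all 7963 genes tested (diamonds) called at least 2-fold higher (left) or lower (right) in each region, in percent. Region 1 has the highest share of members called higher, 26.2% against 1.75% of all genes, and region 13 is below its background, 1.54% against 7.36%.

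Region 5, led by Tbr1, held 116 and 277 spots, and 10 of 12 deep isocortex markers were higher there in both sections. Of 65 members, 5 were called higher (background 1.92%) and 4 lower (background 0.427%). Satb1, a chromatin-binding factor, had 116 and 94.4 CPM there, against 35.1 and 30.1 CPM in the other regions together, a log2 fold change of 1.67 ± 0.09 (SE, adjusted p = 4.89e-21). Its level in region 5 was above that of every other tested region in each section. Cluster 7, left out of the tests for too few spots in section 2, had 107 CPM in section 1. Emx1, a factor of the dorsal telencephalon, had 13.3 and 11.6 CPM against 4.45 and 5.64 (adjusted p = 1.06e-05). Otx1, known from layer 5 and 6 neurons, had 8.09 and 6.38 CPM against 3.35 and 3.63 (adjusted p = 0.00196). Pou3f1, a POU factor of cortical projection neurons and of Schwann cells, was 1.12 ± 0.14 higher on the log2 scale (adjusted p = 1.57e-08), with 53.0 and 30.2 CPM against 22.2 and 20.4.

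The members called lower in region 5 included Six3 and Zfhx4. Six3, a forebrain factor, was called lower at -1.36 ± 0.16, with 9.30 and 11.6 CPM against 24.6 and 29.4 (adjusted p = 5.29e-09). Zfhx4, a large zinc finger homeobox gene, was lower at -1.23 ± 0.21 (adjusted p = 1.48e-05). Irx3 and Otx2 were also called lower, at -1.16 ± 0.38 and -1.04 ± 0.33 (adjusted p = 0.0291 and 0.0257). Those calls rested on few UMIs, 4 and 11 for Irx3 and 7 and 24 for Otx2. Neither passed without the region's own sum of section 1 (adjusted p = 0.330 for Irx3 and 0.0698 for Otx2) or of section 2 (0.0975 and 0.492). The median log2 fold change of the 65 members in region 5 was -0.15, against 0.04 for all genes tested.

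Region 6, led by Neurod6, held the hippocampal regions' markers: all 10 measured CA genes and 7 of 8 dentate gyrus genes were higher in both sections. Of the members, 5 were called higher (background 2.15%) and 5 lower (background 0.578%). Pou3f1 had 59.0 and 48.5 CPM in region 6, against 19.0 and 19.3 in the other regions, a log2 fold change of 1.68 ± 0.12 (adjusted p = 1.47e-15). Lhx2, a LIM factor needed for cortical and hippocampal identity, was higher by 1.15 ± 0.11 (adjusted p = 2.21e-11), with 56.8 and 46.3 CPM against 22.1 and 28.6. Emx2, which acts with Emx1 in the dorsal telencephalon, was higher by 1.16 ± 0.21 (adjusted p = 3.02e-05). Emx1 was called as well, with 10.6 and 8.86 CPM, and lost the call without region 6's section 1 sum (adjusted p = 0.174). Among the members called lower in region 6, Meis1, a TALE factor, had the largest fitted fold, -1.56 ± 0.26 with 3.10 and 3.54 CPM against 10.7 and 10.5 (adjusted p = 9.19e-06). Six3 was lower by -1.28 ± 0.16 (adjusted p = 1.12e-08). Otx2 and Irx3, called lower at -1.17 ± 0.35 and -1.17 ± 0.36, did not pass without the section 1 sum (adjusted p = 0.0614 and 0.0744) or the section 2 sum (0.238 and 0.194). Irx2, chosen after its values were seen, was the remaining member called lower.

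**Figure D3:**
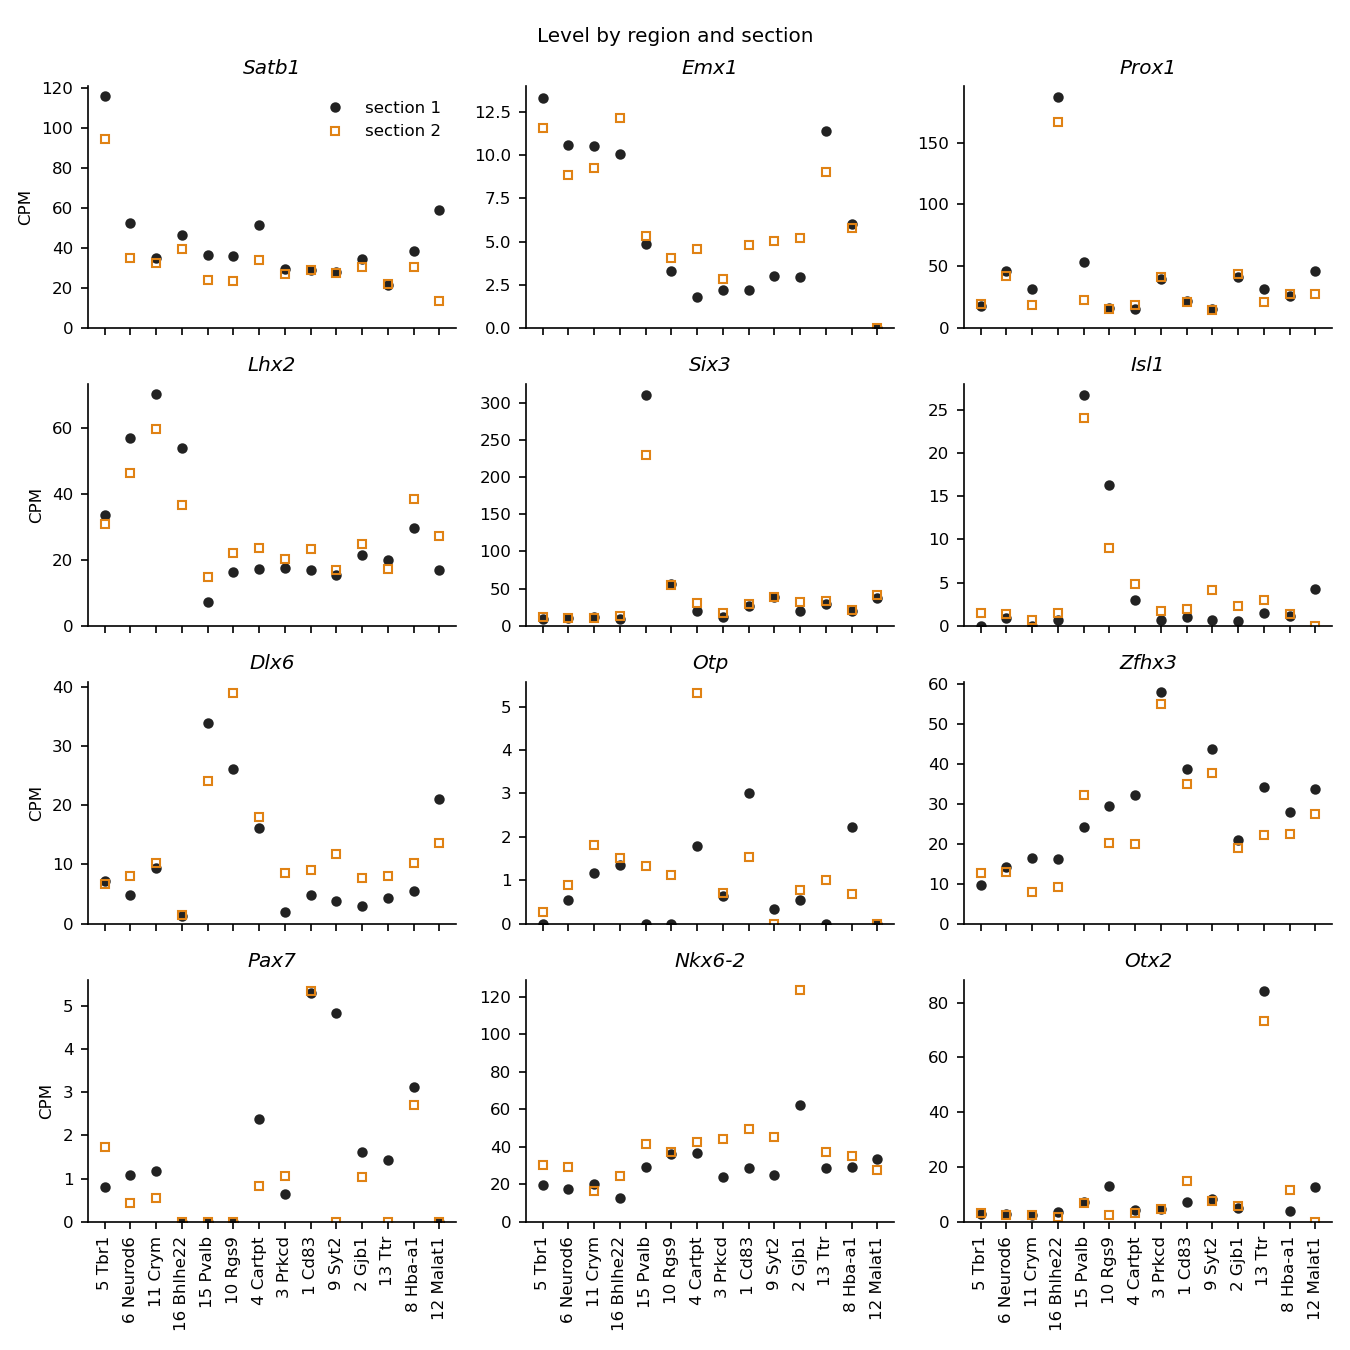
Level of 12 members in CPM (vertical axes, each from 0) in the 14 regions, with section 1 as filled circles and section 2 as open squares. Six3 reaches 310 and 230 CPM in region 15, Prox1 187 and 167 CPM in region 16 and Otx2 84.1 and 73.3 CPM in region 13. Each is far above its other regions in both sections, region 12 left out.

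Region 16, led by Bhlhe22, held 43 and 22 spots, with higher levels in both sections for all 8 dentate gyrus markers (median log2 fold change 3.35). Prox1, a homeobox factor required for granule cells of the dentate gyrus, had 187 and 167 CPM there, against 28.7 and 25.3 CPM in the other regions. The log2 fold change was 2.66 ± 0.12 (adjusted p = 1.77e-24), and the next highest region in either section, region 12 left out, reached 53.3 CPM. Its RefSeq promoter (the first of 2, from 250 bases before to 50 after the start, GRCm38.p6, chr1:190170778-190171077, minus strand) is shown because this member had the region's highest fold change, with the letters CCAAT and TATAAA, on either strand, in capitals.
Prox1: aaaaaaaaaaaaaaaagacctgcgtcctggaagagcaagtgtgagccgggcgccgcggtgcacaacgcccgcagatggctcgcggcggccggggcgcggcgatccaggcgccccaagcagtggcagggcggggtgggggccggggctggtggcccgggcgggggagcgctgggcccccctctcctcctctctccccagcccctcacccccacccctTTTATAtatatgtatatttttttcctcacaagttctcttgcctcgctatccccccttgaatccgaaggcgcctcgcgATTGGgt
In all, 3 members were called higher in region 16 (background 3.94%) and 8 lower (background 3.99%), so the share of higher calls was near the background. Emx2 and Emx1, the other members called higher, had 14.8 and 9.12 CPM and 10.1 and 12.2 CPM. Emx2 did not pass without region 16's section 1 sum (adjusted p = 0.588), and Emx1 did not pass without either section's sum (adjusted p = 0.268 and 0.0882). Lower calls that held without either sum were those of Meis2, at -1.88 ± 0.28 with 8.08 and 16.7 CPM against 31.5 and 41.3, and of Pbx3, at -1.65 ± 0.34 (adjusted p = 4.47e-07 and 0.000143). Dlx6 had 2 UMIs and 1 UMI in region 16 and Irx1 had 3 and 0, and both were called lower. Dlx6 lost the call without the section 1 sum (adjusted p = 0.0721), and Irx1 without either (0.183 and 0.173). Six3, Meis1, Nkx2-2 and Cux2, chosen after their values were seen, were the other 4 called lower. The members' median was -0.54, against 0.00 over all genes tested.

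Set directly against region 6, region 16 had 2 members higher (background 1.22%) and 3 lower (background 1.56%). Prox1 was higher by 1.89 ± 0.14 on the log2 scale (adjusted p = 5.97e-15), with 187 and 167 CPM against 45.7 and 41.8. Lhx9, a LIM factor, had 18.2 and 25.8 CPM against 6.74 and 10.2 (1.17 ± 0.33, adjusted p = 0.0157). Pou3f1 was lower by -2.43 ± 0.29 (adjusted p = 1.42e-08), with 11.4 and 10.6 CPM in region 16 and 59.0 and 48.5 in region 6. Meis2 was lower by -1.23 ± 0.32 (adjusted p = 0.00785). The comparison was repeated without the section 1 sums of both regions, and then without the section 2 sums of both. Lhx9 did not pass either time, with log2 fold changes of 1.17 and 1.30. Meis2 did not pass without the section 1 sums, at -0.61, and was at -1.72 without those of section 2.

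Region 11, led by Crym, held 25 and 174 spots, with markers of several anatomical lists higher. All 5 measured markers of claustrum, endopiriform nucleus and basolateral amygdala were higher there in both sections (median 0.86), as were 5 of 6 piriform cortex markers (median 0.35), 3 of 5 habenula markers (median 0.90) and 2 of 4 septal markers (median 0.95). It had 2 members called higher (background 2.65%) and 7 lower (background 0.929%). Lhx2 reached 70.1 and 59.5 CPM, against 25.5 and 26.8 in the other regions (1.33 ± 0.13, adjusted p = 2.78e-11), and region 11 was its highest region in both sections. Emx1, at 10.5 and 9.27 CPM, did not pass without the section 1 sum (adjusted p = 0.0504) or the section 2 sum (0.303). Isl1 had 0 and 4 UMIs, and Six3 (-1.44 ± 0.19), Otx2 (-1.42 ± 0.42) and Zfhx3 (-1.39 ± 0.19) were called lower with it. All 4 lost the call without the section 2 sum, which held most of the spots (adjusted p = 0.493 for Isl1, 0.0886 for Six3, 0.642 for Otx2 and 0.239 for Zfhx3), and Isl1 also without the section 1 sum (0.0555). Without the section 2 sum the log2 fold change was -1.24 for Six3 and -1.32 for Otx2, close to the values with both sums, and -0.80 for Zfhx3. Pou3f1, Zfhx4 and Nkx6-2, chosen after their values were seen, were the other 3.

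Region 15, led by Pvalb, was small, with 33 and 35 spots, and 4 of 5 GABAergic neuron markers were higher there in both sections (median 1.40), with 6 of 11 thalamus markers (median 0.50). It had 3 members called higher (background 1.26%) and 0 lower (background 0.628%). Six3 had 310 and 230 CPM, from 128 and 172 UMIs, against 21.2 and 24.3 CPM in the other regions. Its log2 fold change of 3.63 ± 0.14 (adjusted p = 3.97e-26) had the lowest adjusted p of all 910 comparisons. The next region, region 12 left out, was region 10, with 55.6 and 54.6 CPM. Isl1, a LIM factor of striatal projection neurons and of many other neuron types, had 26.7 and 24.1 CPM, from only 11 and 18 UMIs, against 0.978 and 2.76 CPM (3.83 ± 0.45, adjusted p = 7.59e-09). Dlx6 had 33.9 and 24.1 CPM against 4.98 and 12.4, and its call did not hold without region 15's section 1 sum (adjusted p = 0.127).

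Six3 and Isl1 lie on different chromosomes and had the most alike regional profiles of any pair of members (Pearson r of log2(CPM + 1) over 28 sums 0.82, and 0.89 without region 12). The sums of a section share its library, and the value is a description. Their RefSeq promoters on GRCm38.p6 are shown for that reason, with CCAAT and TGACAG, on either strand, in capitals. The Six3 promoter is chr17:85620584-85620883 on the plus strand, and the Isl1 promoter is chr13:116309639-116309938 on the minus strand.
Six3: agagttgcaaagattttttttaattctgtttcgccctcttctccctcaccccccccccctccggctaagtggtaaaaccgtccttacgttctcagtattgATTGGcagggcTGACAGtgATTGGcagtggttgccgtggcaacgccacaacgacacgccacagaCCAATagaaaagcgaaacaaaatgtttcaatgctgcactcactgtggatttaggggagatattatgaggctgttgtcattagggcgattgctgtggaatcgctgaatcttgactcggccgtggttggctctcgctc
Isl1: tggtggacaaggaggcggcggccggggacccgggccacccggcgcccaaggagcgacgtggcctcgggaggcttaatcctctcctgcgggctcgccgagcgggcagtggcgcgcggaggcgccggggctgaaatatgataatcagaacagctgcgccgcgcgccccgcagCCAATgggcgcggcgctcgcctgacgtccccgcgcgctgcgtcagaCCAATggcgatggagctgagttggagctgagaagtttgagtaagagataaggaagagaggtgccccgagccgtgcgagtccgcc
CCAAT, a common promoter element, occurred 3 times in the first and 2 times in the second, and TGACAG, a core read by TALE factors such as Meis proteins, occurred once in Six3 and not in this window of Isl1. Over the 63 promoters found for 46 members, 34.9% held CCAAT and 17.5% held TGACAG, against 37.4% and 19.2% of 32851 promoters of all genes. TATAAA was in 9.52% against 13.6%, and TAATTA, a core read by many homeodomains, in 6.35% against 5.29%. The members' promoters differed more in base content: they held a median of 17 CG dinucleotides in 300 bases, against 7 for all genes, and 82.5% of them held at least 10, against 43.5%. A match is a string of letters and does not show that a factor binds.

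Region 10, led by Rgs9, held all 12 striatal markers higher in both sections (median 3.18), with 29 and 198 spots. It had 7 members called higher (background 2.10%) and 0 lower (background 0.138%). Meis2, a TALE factor of striatal neurons, had 134 and 105 CPM, against 30.1 and 35.5 in the other regions (1.76 ± 0.12, adjusted p = 3.17e-16). No other tested region, region 12 left out, came above 72.7 CPM. Isl1 had 16.3 and 9.06 CPM against 1.11 and 2.53 (2.17 ± 0.37, adjusted p = 2.00e-05). These 2 calls held without either of the region's sums. Of the Dlx genes, Dlx6 reached 26.2 and 38.9 CPM against 5.10 and 10.3 (2.09 ± 0.20) and Dlx5 reached 13.1 and 19.5 CPM against 2.42 and 5.98 (1.81 ± 0.29). Six3 had 55.6 and 54.6 CPM (1.15 ± 0.14), Pou3f1 42.5 and 35.8 CPM (1.16 ± 0.18) and Pbx3, a TALE partner of Meis proteins, 26.2 and 53.0 CPM (1.11 ± 0.16). These other 5 passed without the section 1 sum and did not pass without the section 2 sum, which held 198 of the spots, with adjusted p of 0.249 for Dlx6, 0.533 for Dlx5, 0.250 for Six3, 0.501 for Pou3f1 and 0.966 for Pbx3. The log2 fold change without that sum was 2.09 for Dlx6, 2.01 for Dlx5, 1.19 for Six3 and 1.07 for Pou3f1, about as large as with both sums, and 0.38 for Pbx3.

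The set holds 4 protein-coding Dlx genes. Dlx5 and Dlx6, which lie 9831 bases apart on chromosome 6, were called higher in region 10, and Dlx6 also in region 15. Dlx1 and Dlx2, 9427 bases apart on chromosome 2, were called higher in region 4. By the mean CPM of both sections, region 15 was highest for both, though neither was called there. It was highest in section 2 alone for Dlx1 and in section 1 alone for Dlx2. Dlx1 and Dlx2 had 13.1 and 9.51 CPM and 6.54 and 6.11 CPM in region 10, where neither was called (-0.13 ± 0.33 and 0.32 ± 0.39). The profiles of the neighbours were alike in both pairs (r = 0.61 for Dlx1 and Dlx2 and 0.66 for Dlx5 and Dlx6 over 28 sums, 0.84 and 0.79 without region 12). Dlx6 had 16.1 and 18.0 CPM in region 4, and all 4 were higher in region 4 than in region 3 when these were compared. A difference in fold change between the Dlx pairs was not tested. Dlx1as, which overlaps Dlx1 on the other strand, had 53 UMIs, did not differ among regions (adjusted p = 0.265) and had a profile unlike that of Dlx1 (r = -0.09). The sources used here do not say whether the counting used strand, so reads of the overlap could belong to either gene.

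Region 4, led by Cartpt, had the highest median of the hypothalamus list among the tested regions, 1.37 with 11 of 13 markers higher in both sections, and also 3 of 3 measured cholinergic markers (median 1.49), so it is not hypothalamus alone by these lists. It held 123 and 318 spots. Of the members, 8 were called higher (background 1.68%) and 2 lower (background 0.163%). Otp, required for neuroendocrine neurons of the hypothalamus, had 1.79 and 5.31 CPM, from 3 and 45 UMIs, against 1.33 and 0.994 CPM in the other regions. Nkx2-1, a ventral factor that marks hypothalamus and the medial ganglionic eminence, had 1.79 and 4.13 CPM, from 3 and 35 UMIs. Lhx8, which directs basal forebrain cholinergic neurons, had 12.5 and 7.31 CPM against 1.14 and 3.13 (adjusted p = 0.000128), and Lhx6, a factor of neurons born in the medial ganglionic eminence, had 19.7 and 25 CPM against 6.42 and 11.9 (1.30 ± 0.20, adjusted p = 3.75e-06). The calls of Lhx8 and Lhx6 held without either sum. Leaving out region 12, region 4 was the highest region of Lhx6 in both sections and of Lhx8 in section 1 alone. For Otp and Nkx2-1 it was the highest in section 2 alone. Lhx8 was highest in region 9 in section 2, and Otp in region 1 in section 1, at 3.01 CPM.

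The other region 4 calls did not pass without section 2. Barhl2 (3.58 and 5.43 CPM), Dlx2 (5.96 and 11.2 CPM), Dlx1 (16.1 and 22.6 CPM) and Pbx3 (32.8 and 56.6 CPM) were higher with adjusted p of 0.000678, 0.00365, 0.000137 and 4.01e-09. Without the region's section 2 sum the adjusted p was 0.718 for Barhl2, 0.584 for Dlx2, 0.175 for Dlx1, 0.150 for Pbx3, 0.794 for Otp and 0.526 for Nkx2-1. Irx2 and Otx2, called lower at -1.12 ± 0.36 and -1.01 ± 0.33, did not pass without it either (adjusted p = 0.981 and 0.950). The log2 fold change without it was 1.26 for Dlx1 and 1.04 for Dlx2, against 1.09 and 1.10 with both sums, while it was 0.76 for Pbx3, -0.23 for Irx2 and -0.39 for Otx2. Section 1's sum of region 4 had 1676836 UMIs, against 8477412 in section 2.

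Region 3, led by Prkcd, held the thalamus markers, with all 11 higher in both sections (median 2.42). It had 5 members called higher (background 2.56%) and 2 lower (background 0.565%). Zfhx3, which sets circadian period in the suprachiasmatic nucleus, had 58.0 and 54.9 CPM in region 3, against 29.3 and 20.3 in the other regions (1.44 ± 0.10, adjusted p = 7.31e-17). Cux2, a cut-class factor best known from upper cortical layers, had 57.8 and 41.0 CPM against 28.8 and 21.9 (1.02 ± 0.10, adjusted p = 2.15e-11). These other regions do not include cluster 7, which was not tested and had 57.95 CPM of Cux2 in section 1, level with region 3. Six4, with 13 and 9 UMIs in region 3, did not pass without the section 1 sum (adjusted p = 0.105) or the section 2 sum (0.0706), and it did not differ over the 14 regions (adjusted p = 0.0762). Dlx2 was lower at -1.68 ± 0.43 (adjusted p = 0.00316), with 0.792 and 1.93 CPM against 2.66 and 6.35. Dlx5 was called lower at -1.11 ± 0.35 and did not pass without the section 1 sum (adjusted p = 0.203) or the section 2 sum (0.112).

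Regions 4 and 3 were also compared with each other. Of 65 members, 13 were higher in region 4 (background 2.88%) and 5 lower (background 2.45%), with a median of 0.15 against 0.01 over all genes. Lhx6 had 19.7 and 25 CPM in region 4 and 4.12 and 5.79 CPM in region 3 (2.04 ± 0.28, adjusted p = 1.50e-07). Dlx2 had 5.96 and 11.2 CPM in region 4, against 0.792 and 1.93 (2.58 ± 0.42, adjusted p = 4.59e-06), and Dlx1 had 16.1 and 22.6 CPM, against 3.33 and 6.66 (1.84 ± 0.29, adjusted p = 2.38e-06). The largest fitted folds also included Otp (2.64 ± 0.55), Lhx8 (2.52 ± 0.54) and Nkx2-1 (2.17 ± 0.61), which had 0 UMIs in region 3 of section 1. Members called lower included Zfhx3 (-1.32 ± 0.14), Irx1 (-1.27 ± 0.39), Prox1 (-1.21 ± 0.15) and Irx2 (-1.11 ± 0.41). Prox1 had 15.5 and 18.8 CPM in region 4 and 39.6 and 41.0 CPM in region 3 (adjusted p = 2.02e-08). Otp, Nkx2-1, Irx1 and Irx2 did not pass without the section 2 sums of both regions. The log2 fold change was then 1.35 for Otp, -0.33 for Irx1 and -0.18 for Irx2. Nkx2-1 also did not pass without the section 1 sums of both regions, at 1.66. Fewer members were called without either section's sums, and the fewest without those of section 2.

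**Figure D4:**
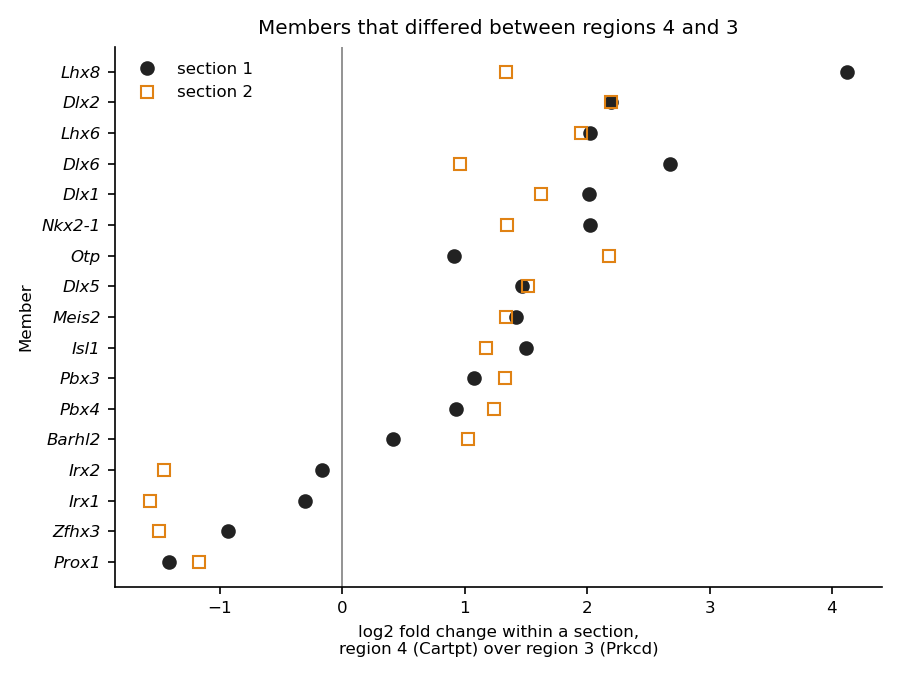
Log2 fold change of region 4 over region 3 within each section (horizontal axis, log CPM with a prior count of 2) for 17 of the 18 members that passed in that comparison, with section 1 as filled circles and section 2 as open squares. All points of the 13 higher members lie right of 0 and all points of the 4 lower members shown lie left of 0.

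Region 1, led by Cd83, was the largest, with 685 and 474 spots, and all 6 markers of tectum and other midbrain were higher there in both sections (median 2.16), with 6 of 7 midbrain dopamine markers and 5 of 7 hindbrain markers. It held 17 members called higher (background 1.75%) and 1 lower (background 0.327%), and the members' median of 0.32 stood against 0.04 over all genes. Of the 4 Pax members, 3 were called higher. Pax7, which marks the superior colliculus, had 60 and 49 UMIs, or 5.31 and 5.35 CPM, against 1.96 and 0.923 CPM in the other regions (adjusted p = 2.70e-08). Pax5, a factor of the midbrain and hindbrain boundary, had 2.39 and 1.86 CPM against 0.703 and 0.172 (adjusted p = 2.36e-05), and Pax3, its relative of the dorsal neural tube, had 1.59 and 0.983 CPM against 0.557 and 0.258 (adjusted p = 0.000551). All 3 had 0 UMIs in at least 3 of the other regions. Pax6, the remaining Pax member, was called in no region.

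Other factors of midbrain neurons were high in region 1 too. Pou4f1, which marks neurons of the tectum, the red nucleus and the habenula, had 6.37 and 4.59 CPM, from 72 and 42 UMIs, against 1.29 and 0.837 (adjusted p = 1.55e-09). Pou4f2, known from retinal ganglion cells, had 2.92 and 3.06 CPM against 1.2 and 0.301 (adjusted p = 3.58e-06). Irx5 had 4.51 and 2.84 CPM against 2.17 and 0.708 (adjusted p = 2.58e-05). Lhx1, a LIM factor, had 11 and 9 UMIs, did not differ over all regions (adjusted p = 0.139) and did not pass here without the section 2 sum (0.248). Dlx2 was the member called lower, at -1.0 ± 0.34, and it did not pass without the section 1 sum (adjusted p = 0.275) or the section 2 sum (0.117). A further 9 called higher, chosen after their values were seen, were Barhl1, Barhl2, En1, Irx1, Irx2, Irx3, Irx6, Lhx5 and Otp, with log2 fold changes of up to 1.86 ± 0.26 for Barhl1 among those with UMIs in all regions.

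All 5 Irx members, the Iroquois genes, were called higher in region 1 and 4 of them in region 9, and none in regions 4 or 10. Irx2 had 21.7 and 12.7 CPM in region 1 (1.80 ± 0.17, adjusted p = 1.27e-11), Irx3 had 13 and 8.19 CPM (1.62 ± 0.19, adjusted p = 1.25e-08) and Irx1 had 10.6 and 8.95 CPM (1.35 ± 0.21, adjusted p = 2.59e-06). Irx6 had 11 and 9 UMIs and passed narrowly (adjusted p = 0.0490), without differing over all regions (adjusted p = 0.248). Irx1 and Irx2 lie within 660707 bases of each other and Irx3, Irx5 and Irx6 share a second cluster, and the r between neighbours ran from 0.10 for Irx3 and Irx5 to 0.47 for Irx1 and Irx2, or from 0.29 for Irx5 and Irx6 to 0.37 for Irx1 and Irx2 without region 12.

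Region 9, led by Syt2, held 295 and 54 spots, with 5 of 6 tectum and midbrain markers (median 1.81) and 3 of 7 hindbrain markers (median 1.66) higher in both sections. It had 9 members called higher (background 1.46%) and 1 lower (background 0.791%), and 8 of the 9 were also called higher in region 1. That overlap was not counted over all genes, so it is not read as particular to the members. Lhx9, a factor of thalamic and midbrain neurons and the one member not called in region 1, had 30.4 and 15.9 CPM against 14.4 and 13.2 in the other regions (1.39 ± 0.19, adjusted p = 1.33e-07). Region 9 was its highest region in neither section: region 11 had 31.55 CPM in section 1 and region 16 had 25.8 CPM in section 2. Irx2 had 24.2 and 4.19 CPM, Irx3 12.5 and 3.35 CPM, Irx1 12.9 and 6.71 CPM and Irx5 4.17 and 1.68 CPM. In section 2 these levels rest on 2 to 8 UMIs. Barhl1, known from hindbrain and mammillary neurons, had 13.2 and 7.54 CPM, and Pou4f1 had 3.34 and 1.68 CPM. Prox1 was called lower at -1.06 ± 0.16, with 15.2 and 14.3 CPM against 36.7 and 27.3.

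These calls did not pass without section 1. Without region 9's section 1 sum the adjusted p was 0.602 for Lhx9, 1.0 for Irx2, 0.941 for Irx3, 0.483 for Irx1, 0.669 for Irx5, 0.229 for Barhl1, 0.804 for Pou4f1 and 0.0587 for Prox1. The log2 fold change without that sum was -1.11 for Prox1, against -1.06 with both, and 1.81 for Barhl1, against 2.10, while it was 0.59 for Lhx9, 0.25 for Irx2 and 0.45 for Irx3, against 1.39, 1.78 and 1.33. Without it 1 member was called higher in region 9, against 15 without its section 2 sum. En1, chosen after its values were seen, had 32 UMIs and 1 UMI there and was called too.

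Hox genes, the factors of the hindbrain and spinal cord, were scarce. Of 39 Hox symbols, 20 had a UMI and 1, Hoxb5, reached 50. Together they had 271 UMIs in section 1 and 13 in section 2. Region 1 held 107 of the 271 and region 9 held 59. Hoxb5 had 78 UMIs in section 1, in 54 spots, and 0 in section 2, where a count of 0 allows up to 3 UMIs of the library. Its UMIs lay mostly in regions 1, 9 and 8, with 32, 22 and 11 in section 1. It differed among regions (adjusted p = 0.00238) without being called in any, and this difference rests on section 1 alone.

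Region 2, led by Gjb1, held all 9 oligodendrocyte markers (median 2.08) and all 6 precursor markers (median 1.25) higher in both sections. It had 4 members called higher (background 4.61%) and 0 lower (background 0.0753%), a share of 6.15% that is near the background. Nkx6-2, which controls myelination and the structure of paranodes, had 62.1 and 124 CPM, against 25 and 36.9 in the other regions (1.77 ± 0.10, adjusted p = 1.66e-20), and region 2 was its highest region in both sections. Nkx2-2, needed for oligodendrocyte differentiation, had 18.9 and 21.0 CPM against 9.92 and 8.86 (1.36 ± 0.17, adjusted p = 4.66e-09). Nkx2-9, its close relative of the ventral neural tube, had 22 and 15 UMIs, or 5.94 and 3.90 CPM, against 1.82 and 1.14 CPM (adjusted p = 6.61e-06).

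Region 13, led by Ttr, held all 8 choroid plexus markers (median 5.60) and all 6 measured ependyma markers (median 4.38). It had 1 member called higher (background 7.36%) and 0 lower (background 0.779%). That member was Otx2, which is required for the choroid plexus to form and persists there. It had 59 and 73 UMIs, or 84.1 and 73.3 CPM, against 5.41 and 5.81 CPM in the other regions, a log2 fold change of 4.08 ± 0.25 (adjusted p = 5.67e-19). No other tested region passed 14.7 CPM in either section. Of its 4 RefSeq promoters the third (GRCm38.p6, chr14:48665060-48665359, minus strand) is shown, with TAATTA, on either strand, in capitals at 3 places, and was chosen from the 4 for those matches.
Otx2: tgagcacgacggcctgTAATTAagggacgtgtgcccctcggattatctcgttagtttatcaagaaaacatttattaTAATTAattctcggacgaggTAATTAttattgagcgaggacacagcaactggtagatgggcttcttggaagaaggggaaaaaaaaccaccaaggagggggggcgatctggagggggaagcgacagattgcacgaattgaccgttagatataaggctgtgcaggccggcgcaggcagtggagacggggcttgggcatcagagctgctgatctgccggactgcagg
None of the other 64 members was called there.

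Region 8, led by Hba-a1, held all 5 red blood cell, all 8 meningeal fibroblast and all 6 mural markers higher in both sections, with medians of 3.32, 3.05 and 2.55. It had 6 members called higher (background 6.99%) and 0 lower (background 0.0879%), a share of 9.23% near the background. Nkx6-1, a ventral neural tube and islet factor, had 15 and 7 UMIs, or 3.35 and 2.38 CPM, against 0.488 and 0.322 CPM (adjusted p = 4.98e-05), and held without either sum. Six5 had 8.94 and 4.75 CPM against 2.59 and 1.88 (1.74 ± 0.31, adjusted p = 1.87e-05) and did not pass without the section 1 sum (adjusted p = 0.0840). Pax7, Barhl1 and Irx5, midbrain members of region 1, were also called. Pax7 had 3.13 and 2.72 CPM and lost the call without the section 1 sum (adjusted p = 0.0689), and Barhl1 had 6.93 and 8.82 CPM and lost it without the section 2 sum (0.0637). Irx5 lost it without either (0.353 and 0.0574). Of 6 tectum and midbrain markers, 4 were above the other regions in both sections of region 8 (median 0.81), and their part in these calls was not tested.

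In region 12 no member was called in either direction, against 0.0628% of all genes called higher and 0.00% lower. Its sums of 237639 and 73159 UMIs leave several members with 0 UMIs. Of all genes tested, 5 were called higher there, among them Malat1, Penk and Ppp1r1b. At this depth the lack of calls does not show that the members' levels there were like those elsewhere.

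Of the 15 members called in no region, 11 still differed among regions. With the sections pooled, Pou3f3 ran from 38.2 CPM in region 11 to 78.5 in region 6 (adjusted p over all regions 4.18e-10), and Cux1 from 44.5 CPM in region 11 to 85.5 in region 13 (adjusted p = 2.02e-08). Pbx4, Meis3, Pou6f1, Zfhx2, Pou3f2, Pax6, En2 and Hoxb5 also differed among regions and were called in none. The 4 that did not pass were Pbx2, Pou2f1, Pou2f2 and Dlx1as. Pbx2 had 5010 UMIs and lay between 41.3 and 52.7 CPM (adjusted p = 0.761), and Pou2f1, an octamer factor of most cell types, lay between 7.75 and 14.2 CPM (adjusted p = 0.102). Meis1 and Zfhx4 were the 2 members called only lower.

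Clusters 7 and 14 had too few spots in section 2 for a test. Cluster 7, with 356 spots in section 1 and 3 in section 2, was led by Dkkl1, and 8 of 10 superficial isocortex markers and 9 of 12 deep ones were higher there than in the rest of section 1. The comparisons of regions above leave it out. In section 1 it had 107 CPM of Satb1, 12.2 of Emx1, 5.99 of Otx1 and 26.5 of Pou3f1, members called higher in region 5. It had 57.95 CPM of Cux2, called higher in region 3. Cluster 14, with 71 spots in section 1 and 0 in section 2, was led by Pcp2, and 8 of 8 Purkinje and 8 of 9 granule cell markers of the cerebellum were higher there. Of the members, En2, a cerebellar and midbrain factor, had 34 UMIs, or 28.1 CPM (19.5 to 39.3), against 3.22 CPM (2.77 to 3.72) in the other spots. Meis1 had 43.0 CPM (32.1 to 56.4) against 8.83 (8.08 to 9.63), Barhl1 had 23.2 CPM (15.4 to 33.5) against 5.5 (4.91 to 6.14), and Barhl2 had 18.2 CPM (11.4 to 27.5) against 2.66 (2.26 to 3.12). Pax3, with 11 UMIs, had 9.10 CPM (4.54 to 16.3) against 0.696 (0.498 to 0.948). The intervals cover counting error only, and no p-value can be had from 1 section.

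The regional profiles of members were moderately alike between the sections. Over 13 regions, region 12 left out, the Pearson r of log2(CPM + 1) between sections had a median of 0.60, from 0.03 for Pou3f2 to 0.97 for Six3, and 16 members reached 0.8. Over all 14 regions the median was 0.49. Among all genes tested the medians were 0.52 and 0.42. The 28 members with at least 1000 UMIs had a median of 0.70 and the 36 with fewer had 0.51. The highest region was the same in both sections for 29 of the members, region 12 left out.

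**Figure D5:**
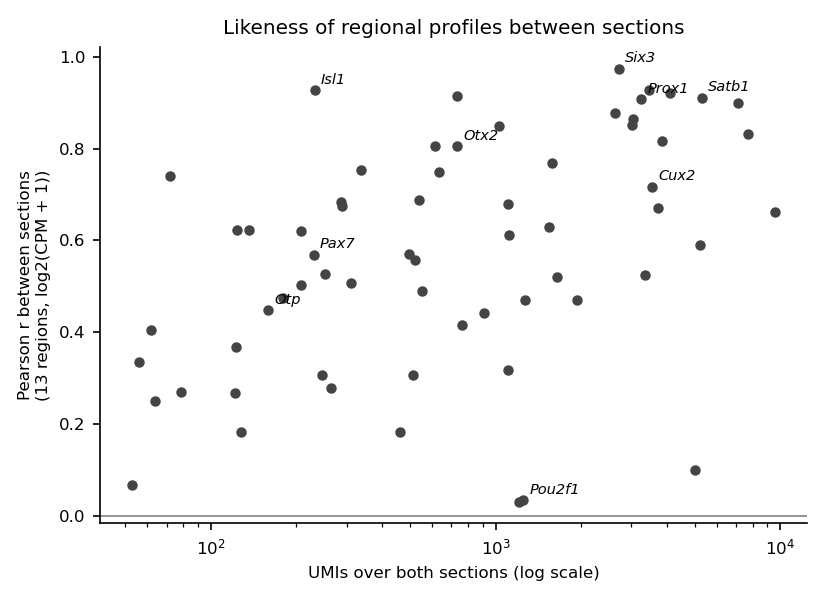
Pearson r between the sections of each member's profile over 13 regions (vertical axis, log2(CPM + 1)) against its UMIs over both sections (horizontal axis, log scale). Hoxb5 has no value, since it had 0 UMIs in section 2. Six3, with 2702 UMIs, reaches 0.97, and Pou2f1, with 1248 UMIs, lies at 0.03.

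Likeness between members was described over the same sums. Zfhx3 and Zfhx4 (r = 0.78), Meis1 and Meis2 (0.74) and Pax3 and Pax7 (0.75) were alike within families, and Meis2 with Dlx6 (0.80) and Pou4f2 with Irx5 (0.81) across families. The 9 pairs of members less than 1000000 bases apart had a median r of 0.31, the 104 other pairs within a family 0.15, and the 1967 remaining pairs 0.08. The sums share libraries and regions of unequal depth, so these values are given without a test.

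Further lists of transcription factors were measured beside the members. Of 41 homeobox genes outside the set, 30 were tested and 26 differed among regions, 16 were called higher somewhere and 5 lower. Shox2 and Gbx2, homeobox genes of thalamic neurons, had 81.8 and 68.9 CPM and 26.8 and 26.8 CPM in region 3, and Msx1 had 61.3 and 72.3 CPM in region 13. Of 46 regional transcription factors without a homeobox, 43 were tested, 41 differed, 32 were called higher somewhere and 17 lower. The background over all genes tested was 60.5% that differed, 29.3% called higher somewhere and 7.82% lower. Both lists were chosen with earlier results of these data known. The named genes of both lists were chosen after their values were seen.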

How the data were processed

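The authors deposited raw UMI counts per gene and spot. Space Ranger made them, in version 1.2.2 for section 1 and 2.0.1 for section 2, per the file headers. The submitters' processing notes give mm10 and 2.0.1 for both, so version and section cannot be told apart. The sources used here name no annotation release. Section 1 held 58662871 UMIs and section 2 held 55851559.

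The members and all lists were chosen with earlier results of these data known. All symbols fitting the rule, all listed genes and a random part of the rest (16347 genes) were kept out of the clustering, which used 2000 variable genes, 30 principal components, 15 neighbours and leidenalg 0.10.2 at resolution 1 (Python 3.11.15, numpy 2.4.6, with scikit-learn 1.9.0). Sums per section and region were tested in R 4.3.3 by the quasi-likelihood test of edgeR 4.0.16, using TMM factors and the section as a block, over 7963 genes with at least 50 UMIs, and adjusted by Benjamini-Hochberg over all of them (13 residual and 34.2 prior degrees of freedom). The fits were also run on simulated sums in which only planted genes differed between regions, unlike these data. No result here rests on that run. Section fold changes use a prior count of 2. The regions of a pair were those with the highest median of their marker list if above 0.5. A comparison of superficial with deep isocortex was not run, since no tested region passed that limit for the superficial list (highest median 0.28).

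The text names for each region up to 8 members called higher and 4 lower, by size of the fitted change, for a pair up to 6 each way, and for an untested cluster those with at least 10 UMIs and 4 times the level of the rest. Alternatives included DESeq2 1.42.0, other filters, other clusterings, no section block and leaving out each sum. Results for 5 members are not reported here, though counts over the set hold them. All 65 members matched RefSeq (GRCm38.p6) by symbol.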

Additional observations from a re-analysis of the deposited data

Results flagged for a closer look

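Signal was found in genes outside the comparisons, namely antisense or neighbouring transcripts of members that the naming rule leaves out. Pantr1, a noncoding neighbour of Pou3f3, had 9534 UMIs over both sections and region 6 as its highest region in each. Lhx1os had 1234 UMIs, with region 9 highest in each section, while Lhx1 itself had 56. Dlx6os1 had 920 UMIs and region 10 highest, as had Dlx6 in section 2, and Six3os1 had 736 UMIs and region 15 highest, as had Six3. The Pearson r with the partner over 28 sums was 0.63 for Pantr1, 0.26 for Lhx1os, 0.68 for Dlx6os1 and 0.78 for Six3os1. Without knowing whether the counting used strand, reads of overlapping parts cannot be assigned to 1 gene of a pair.

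The 19 Hox genes with a UMI but under the limit had 206 UMIs together, 193 in section 1 and 13 in section 2.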

How the results depend on the processing

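Counts held within 1.5 times of those reported under most settings. No replicate block (the section term left out) gave 17 pairs called lower, against 30, and 2 members changed between regions 16 and 6, against 5, and left 43 members that differed among regions, against 58. Leaving out 1 sum of each region in turn gave 51 to 72 pairs called higher (75 reported), 17 to 28 lower, 2 to 4 members changed between regions 16 and 6, and 9 to 17 between regions 4 and 3 (18 reported). For a comparison of 2 regions, the sums of both regions from the same section were left out together. Dropping region 12, an alternative added after seeing the data, gave a median r between sections of 0.601. Elsewhere pairs called higher ran from 53, with at least 30 spots per section, which drops 4 regions, to 93, at Leiden resolution 1.5, which tests 18. DESeq2 gave 54 members that differed, with 60 pairs higher and 27 lower. No named call changed direction under the settings in which named calls were compared. The other clusterings and the other UMI limits for members were judged by counts alone. Of 87 named calls, 13 did not pass with DESeq2, which gave 8 others no adjusted p, and 19 did not pass without the block. With at least 30 spots per section, the comparison of regions 16 and 6 could not be run. Members with few UMIs have little room to be called lower, and 56 member and region pairs had 0 UMIs in both sections.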
